A study of Homo sapiens with 12 samples.

Results

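The normal course of cardiac differentiation between day 8 and day 12 was followed in the vehicle-treated cultures of H9, an established line of human embryonic stem cells. Its members were chosen by their labels alone. They are the 2 libraries of cells kept in DMSO, the solvent, and collected at day 8, and the 2 collected at day 12, so 4 of the 12 libraries of the series. The other 8 libraries came from cells given 60 µM F-53B or 60 µM PFOS, both polyfluorinated sulfonates, from day 0 on, with 2 libraries for each compound and day. The labels name no genetic change in any group. Differentiation followed a published protocol that the submitters modified, and RNA was sequenced on the BGISEQ-500. The labels do not say whether replicates were separate cultures, so p-values measure the spread between libraries of a group, which may be technical. Unless stated otherwise, that spread was taken from all 12 libraries, the 8 of treated cells included. All cells come from 1 line.

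In this kind of culture, mesoderm is induced from pluripotent cells by a pulse of WNT signalling, and heart progenitors then arise as that signal is blocked. The first contracting cells express the atrial and embryonic forms of many sarcomere proteins, whatever chamber they will resemble later. As cardiomyocytes mature, they build regular Z-discs, take up and release calcium through the sarcoplasmic reticulum, turn to mitochondrial oxidation for energy and divide less. Epicardial, stromal, endothelial and endodermal cells can arise in the same dish.

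Messenger RNA was given as FPKM, fragments scaled to transcript length and to the library's total of mapped fragments, a level that can be set side by side between genes because it is divided by length. Of 19040 genes with values, 14080 reached 1 FPKM in at least 2 of the 12 libraries and were tested. Totals in the 4 DMSO libraries ran from 411176 to 423161 FPKM, and 13128 to 13205 genes reached 1 FPKM. The number of reads is unknown. Replicates correlated across genes with r = 0.9935 at day 8 and 0.9965 at day 12, where genes are not independent replicates. The day 8 pair differed more than 2-fold in 39 genes and the day 12 pair in 15. The first principal component of the 4 libraries held 89.7% of the variance. Marker genes fixed for 10 cell types gave a cardiac population with others beside it. The 8 cardiomyocyte markers summed to 6394 and 8472 FPKM at day 8 and 11560 and 11460 at day 12, and each was above 1 FPKM in all 4 libraries. The 5 epicardial markers summed to 155 and 110 FPKM at day 8 and to 40.5 and 43.3 at day 12, and the 5 fibroblast markers to 741 and 634 and to 160 and 162. Most of the fibroblast sum was COL1A1, whose levels are given below. Of the 5 fibroblast markers, 3 and 3 reached 1 FPKM at day 8 and 4 and 5 at day 12, so the set did not fall as a whole. The sum of the 7 endodermal and hepatic markers rose, from 55.4 and 100 to 648 and 468 FPKM. Of the 5 blood markers RUNX1 and HBZ, and of the 4 neural markers SOX1 and PAX6, stayed under 1 FPKM in all 4 libraries. In such bulk samples, fewer cells of a type and less RNA per cell cannot be told apart.

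From day 8 to day 12 in DMSO, 5308 of the 14080 genes tested, 37.7%, passed limma's moderated test at an adjusted p under 0.05. Of all genes tested, 19.5% rose (2746) and 18.2% fell (2562), and these shares are the background for every list below. Log2 changes are differences of log2(FPKM + 1), day 12 minus day 8, and the median over all genes was 0.03. A change of at least 1 on that scale was reached by 787 genes, 5.59% of those tested, with 371 up and 416 down. The libraries of the 2 days did not overlap for 10312 genes, 73.2%, so a lack of overlap is common here. Without day 12 replicate 1 the count of genes past the test was 3299, and without day 12 replicate 2 it was 3441. Ranges of adjusted p given below cover refits under other settings, among them a block on the replicate number. Lost calls named gene by gene leave out that block. The 48 lists of genes described here were written from textbook knowledge of the heart, its neighbouring tissues and the pathways of development. They were chosen with earlier results of these data known, so their shares are descriptions and not independent tests.

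**Figure D1:**
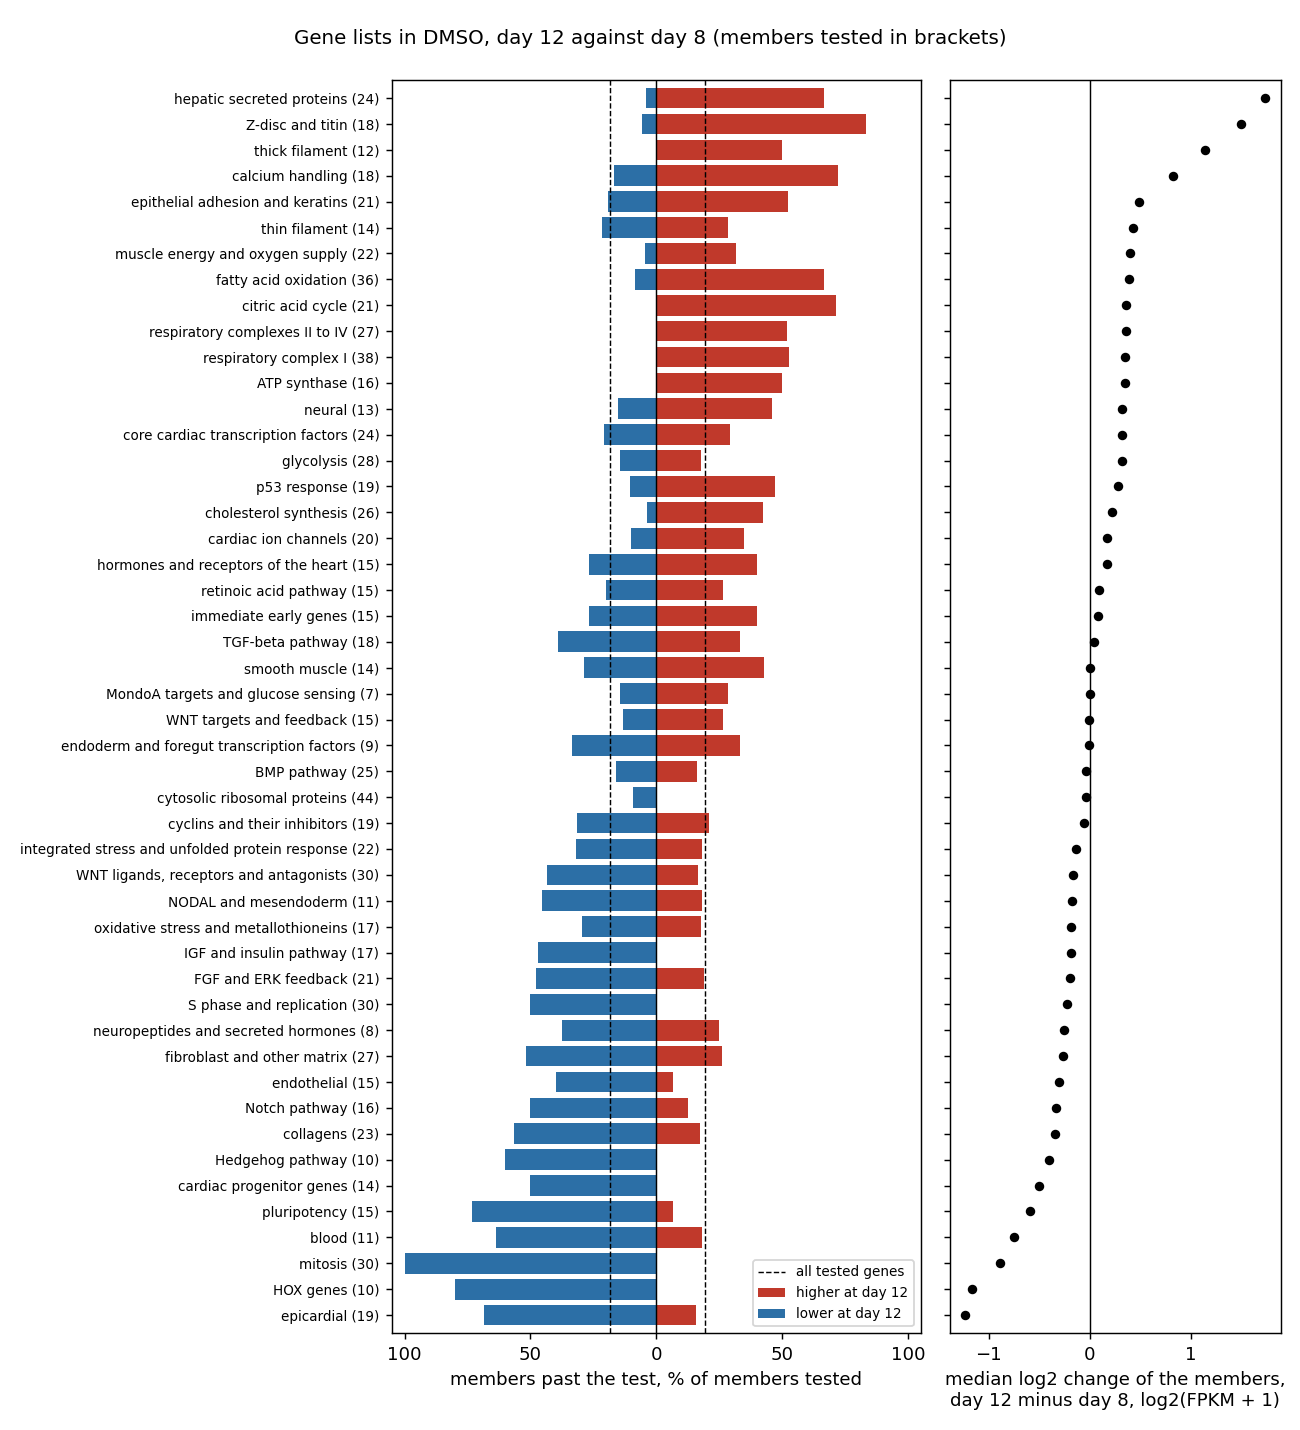
For each of the 48 gene lists, the left panel shows the percentage of tested members that rose (red, to the right) or fell (blue, to the left) between day 8 and day 12 in DMSO, with dashed lines at the shares of all tested genes, 19.5% and 18.2%. The right panel shows each list's median log2 change, which ran from -1.23 for epicardial genes to 1.73 for hepatic secreted proteins.

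Genes of the Z-disc, the plate that anchors actin filaments and titin at the ends of the sarcomere, rose together. Of 18 tested members, 15 rose, 1 fell and 2 did not pass, with a median log2 change of 1.49 against 0.03 for all genes. MYOZ2, which ties calcineurin to the Z-disc, rose from 10.4 and 12.6 FPKM at day 8 to 88.5 and 94.7 at day 12 (log2 change 2.89, SE 0.45, adjusted p = 0.00224). SYNPO2L, an actin-binding protein of the Z-disc, rose from 9.64 and 10.8 FPKM at day 8 to 58.8 and 66.8 at day 12 (log2 change 2.50, SE 0.21, adjusted p = 1.7e-05). Both genes were low in the 2 day 8 libraries and several-fold higher in the 2 day 12 libraries, with no overlap. CRYAB, a small heat shock protein that guards desmin and titin, went from 30.6 and 37.2 FPKM at day 8 to 120.0 and 135 at day 12 (1.89), and FHL2, a LIM protein, went from 41.8 and 50.3 FPKM at day 8 to 169 and 168 at day 12 (1.86). ACTN2, the actinin that cross-links actin at the Z-disc, rose by 1.60, and TTN, the giant spring of the sarcomere, by 1.15 (21.2 and 23.9 to 48.3 and 54 FPKM). DES, the intermediate filament of muscle, was the member that fell, from 143 and 144 FPKM at day 8 to 101 and 97.6 at day 12 (-0.53). Without 1 library at a time, 9 to 11 members rose in place of 15, the lowest count being that without day 8 replicate 1 or without either day 12 library. The calls of TTN (adjusted p from 1.52e-05 to 0.0998 over the alternatives) and FHL2 (3e-06 to 0.129) were lost without each of the 4 libraries in turn, and that of FHL2 also with a pseudocount of 0.1 FPKM. Those of ACTN2 (4.35e-06 to 0.074) and CSRP3, another LIM protein (1.68e-06 to 0.078), were lost without day 8 replicate 1 or either day 12 library, and that of TCAP, the titin cap (1.85e-06 to 0.0577), without day 8 replicate 1.

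Thick filament genes, which encode the myosins and the proteins that space them, gave 6 rises and 0 falls among 12 tested, with a median log2 change of 1.14. MYL2, the ventricular regulatory light chain, which lies on chromosome 12 from 110910819 to 110920722, was listed at 0 and 0.07 FPKM at day 8 and at 14.1 and 17.7 at day 12 (log2 change 4.02, SE 0.21, adjusted p = 2.44e-07). MYH7, the slow beta-myosin heavy chain, rose from 11.2 and 18.4 FPKM at day 8 to 137 and 148 at day 12 (log2 change 3.22), and MYH7B, a related heavy chain, from 2.55 and 2.14 FPKM at day 8 to 11.1 and 10.2 at day 12 (1.80). The atrial light chain and the alpha heavy chain did not pass. MYL7, the atrial regulatory light chain, had 2826 and 3860.1 FPKM at day 8 and 5259 and 5192 at day 12 (log2 change 0.66, adjusted p = 0.194). MYH6, the alpha heavy chain, had 930.4 and 1365 FPKM at day 8 and 1795 and 1784 at day 12 (0.67, adjusted p = 0.382). Both genes were higher in each day 12 library than in either day 8 library. MYL3 rose by 1.61 (adjusted p = 0.0468) and MYBPC3, which tunes crossbridges, by 1.67 (0.0424). Both calls were lost without any 1 of the 4 libraries and with a pseudocount of 0.1 FPKM, and that of MYL3 also after scaling to equal totals, with adjusted p from 3e-06 to 0.165 over the alternatives for MYL3 and from 1.65e-06 to 0.145 for MYBPC3. The thick filament count was 3 without day 8 replicate 1 or either day 12 library and 4 without day 8 replicate 2.

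The thin filament changed less. Of 14 members, 4 rose and 3 fell, with a median of 0.43. ACTA1, the skeletal alpha-actin, rose from 5.08 and 9.88 FPKM at day 8 to 36.6 and 37.6 at day 12 (log2 change 2.23, SE 0.32, adjusted p = 0.000672), a call at the threshold with a pseudocount of 0.1 FPKM (0.0501, over alternatives from 0.000342 to 0.0501). LMOD2, which lengthens actin filaments, rose from 0.35 and 0.89 FPKM at day 8 to 4.37 and 5.81 at day 12 (1.92), and TMOD1, which caps their ends, by 0.96. TNNT1, the slow skeletal troponin T, fell from 47.3 and 37.5 FPKM at day 8 to 20.4 and 24.6 at day 12 (-0.88), as did the non-muscle tropomyosins TPM3 (-0.43) and TPM4 (-0.37). TNNT2, the cardiac troponin T, had 1246 and 1473 FPKM at day 8 and 2028 and 2041 at day 12 (0.59, adjusted p = 0.244). It passed when the spread was taken from the 4 DMSO libraries alone (0.000962, over alternatives from 0.000315 to 0.507). With those 4 libraries alone, 9 thin filament genes rose in place of 4.

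Promoter windows of 300 bases, from 250 bases before to 50 after each transcript start, were taken from RefSeq on GRCh38.p14. At least 1 window was matched for 11308 of the 14080 tested genes, 16614 windows in all, and both strands were searched. A MEF2 site, the AT-rich element bound by the muscle factor MEF2, was found in 8 of 18 windows of Z-disc genes, which come from 7 of 14 genes, against 1.78% of all windows. It was found in 0 of 23 thin filament windows and in 1 of 7 thick filament windows. A CArG box, 2 C and 2 G around 6 bases of A or T, bound by the serum response factor SRF, was found in 5 of those 18 windows, from 2 genes, in 3 of 23 thin filament windows and in 2 of 7 thick filament windows, against 1.21% of all. Windows of 1 gene overlap, so they are not independent, and a match describes letters and not a bound site. The windows of MYOZ2 and ACTA1 are shown because these genes had the largest rises of the Z-disc and the thin filament. Capitals mark the MEF2 site in MYOZ2, and the CArG box and then the TATA box (TATAAA) in ACTA1. They lie at chr4:119135582-119135881 on the plus strand and chr1:229434045-229434344 on the minus strand, and are written on the strand of the gene from 5′ to 3′.
MYOZ2: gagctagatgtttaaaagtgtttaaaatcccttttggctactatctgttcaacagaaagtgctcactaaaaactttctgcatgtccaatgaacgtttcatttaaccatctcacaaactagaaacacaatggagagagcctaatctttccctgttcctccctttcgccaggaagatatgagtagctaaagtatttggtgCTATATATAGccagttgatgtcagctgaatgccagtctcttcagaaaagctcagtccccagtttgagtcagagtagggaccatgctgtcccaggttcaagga
ACTA1: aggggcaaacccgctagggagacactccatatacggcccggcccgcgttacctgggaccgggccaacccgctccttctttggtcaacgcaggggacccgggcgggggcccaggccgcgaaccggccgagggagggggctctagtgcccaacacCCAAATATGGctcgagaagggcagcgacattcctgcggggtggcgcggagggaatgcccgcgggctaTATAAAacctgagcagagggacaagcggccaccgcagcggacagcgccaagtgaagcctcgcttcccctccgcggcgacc

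**Figure D2:**
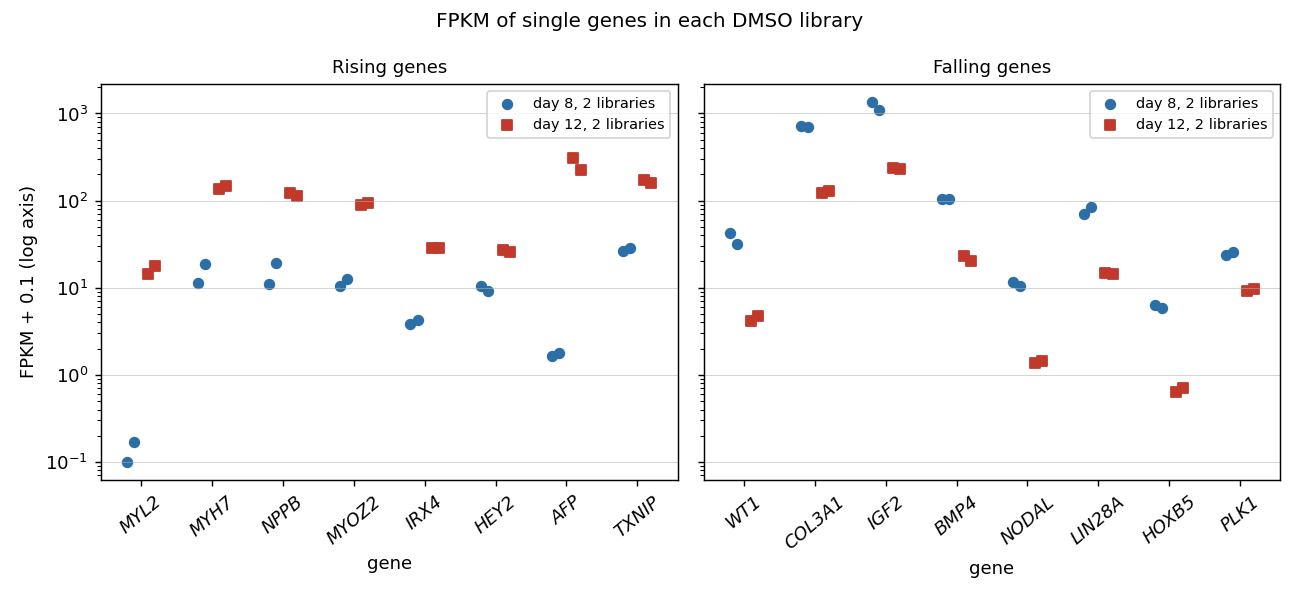
FPKM of 16 single genes in each DMSO library, with 0.1 added, on a log axis, where circles are the 2 day 8 libraries and squares the 2 day 12 libraries. In each of the 16 genes shown, the squares lie wholly above (left panel) or wholly below (right panel) the circles, as for 73.2% of all tested genes.

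The balance between related genes was measured as the share of the first gene in the summed FPKM of a pair, library by library. Such shares do not depend on a scale factor between libraries. For 13 of 18 pairs, the 2 days did not overlap, a share near the 73.2% of all tested genes whose days did not overlap. The count by itself therefore does not set the pairs apart. The exact two-sided permutation test cannot go below 0.33 with 2 libraries against 2, so no p is given. MYH7 made up 1.18% and 1.33% of the cardiac myosin heavy chain FPKM at day 8 and 7.07% and 7.66% at day 12, so MYH6 remained the major form. MYL3 went from 15.2% and 14.5% of its pair with MYL4, the atrial and embryonic light chain, to 27.4% and 28.1%. CKM, the muscle creatine kinase, went from 34.7% and 32.9% of its pair with the brain form CKB to 51.6% and 53.8%. This was the largest difference of the 18 pairs, 18.9 percentage points. Neither gene passed limma's test by itself, with log2 changes of 0.96 for CKM (adjusted p = 0.34) and -0.16 for CKB (0.592). CKM did pass with the 4 DMSO libraries alone. NPPA made up less of its pair with NPPB at day 12, with shares going from 83.7% and 86.5% to 71.1% and 72.9%. CPT1A, the liver form of the enzyme that admits fatty acids to mitochondria, took a larger part of its pair with the muscle form CPT1B, whose share went from 72.4% and 73.5% to 59.9% and 58.8%. PYGM, the muscle form of glycogen phosphorylase, went from 57.3% and 52.7% of its pair with the brain form PYGB to 42.6% and 42.5%. So the share of the muscle form was higher at day 12 for creatine kinase and for phosphoglycerate mutase (PGAM2, 2.84% and 4.49% to 10.2% and 8.44%), and lower for the carnitine transferase and the phosphorylase. TNNI3, the adult cardiac troponin I, held 33.8% and 32.3% of its pair with the fetal form TNNI1 at day 8 and 31.4% and 32.8% at day 12, and the days overlapped. MYH6 and MYH7, and the actins, are alike enough to exchange reads, so their shares are less certain.

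**Figure D3:**
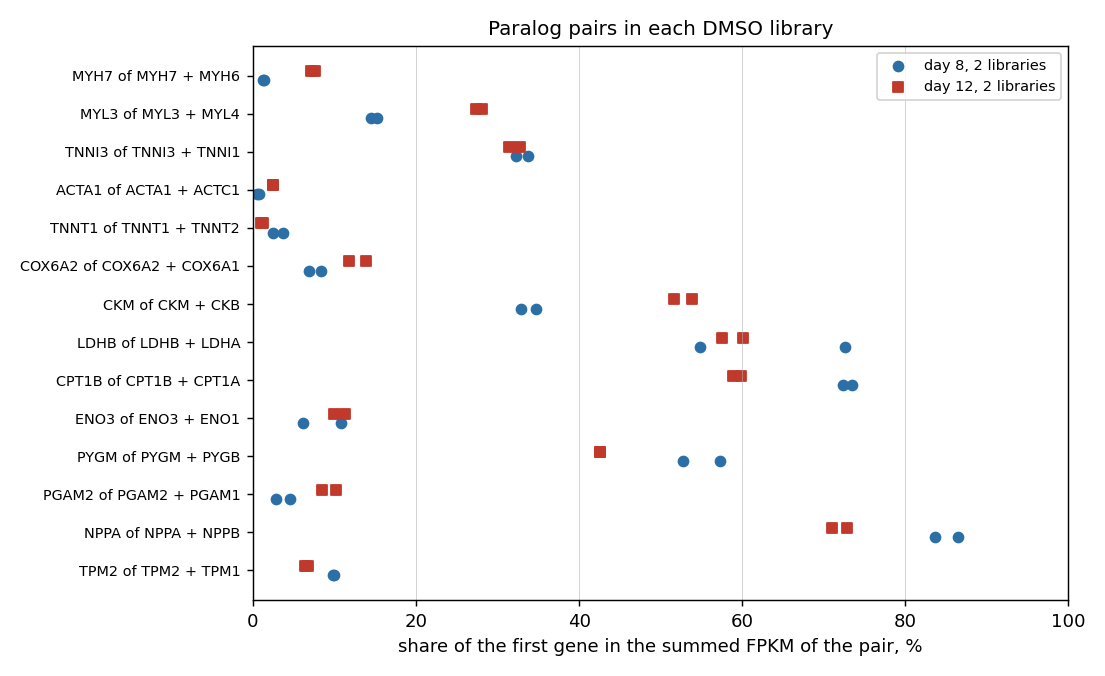
Share of the first gene in the summed FPKM of 14 paralog pairs, in percent, in the 2 day 8 libraries (circles) and the 2 day 12 libraries (squares) of DMSO. CKM moved the farthest, by 18.9 percentage points, while the days overlap for TNNI3, LDHB and ENO3, and the pairs of MYL2, COX7A1, GJA5 and IGF1 are not drawn.

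Calcium handling genes rose in 13 of 18 cases, with 3 falls and a median of 0.82. They load, hold and release the calcium that triggers each beat. SLC8A1, the sodium-calcium exchanger, rose from 72.4 and 83.4 FPKM at day 8 to 162 and 164 at day 12 (log2 change 1.06, SE 0.35, adjusted p = 0.0486). RYR2, the release channel, rose by 0.93 (14.7 and 14.1 to 27.7 and 28.7 FPKM), ATP2A2, the pump that refills the store, by 0.76 (92.4 and 116 to 176 and 175), and CASQ2, the cardiac calcium buffer, by 0.97 (0.11 and 0.13 to 1.46 and 0.97). SLN, an atrial inhibitor of the pump, fell from 7.64 and 5.38 FPKM at day 8 to 0.69 and 0.78 at day 12 (log2 change -2.10, SE 0.24, adjusted p = 8.68e-05), while PLN, its ventricular relative, rose from 14.9 and 22.5 FPKM at day 8 to 41.1 and 42.6 at day 12 (1.15). The PLN call was lost without day 8 replicate 1 and without either day 12 library (adjusted p from 0.000433 to 0.119 over the alternatives), and that of SLC8A1 without each of the 4 libraries in turn and with a pseudocount of 0.1 FPKM (2.16e-05 to 0.179). The count of rises was 8 to 10 without 1 library at a time, with 8 without day 12 replicate 1 or day 8 replicate 1.

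Among 20 ion channel and connexin genes, 7 rose and 2 fell, with a median of 0.17. CACNB2, a subunit of the L-type calcium channel, rose from 6.54 and 8.25 FPKM at day 8 to 18.7 and 19.9 at day 12 (log2 change 1.28, SE 0.18, adjusted p = 0.000277), and CACNA1C, its pore, by 0.83 (7.19 and 8.32 to 14.9 and 14.1 FPKM). HCN4, the pacemaker channel, rose by 0.58 (31.4 and 28.5 to 46.4 and 43.9). KCNJ3, a subunit of the acetylcholine-gated potassium channel of atrium and pacemaker, fell from 11.2 and 8.64 FPKM at day 8 to 0.61 and 0.69 at day 12 (log2 change -2.72, SE 0.15, adjusted p = 3.57e-07), and KCNA5, the potassium channel of the ultrarapid atrial current, fell by 0.67. KCNH2, of the rapid repolarizing current, did not pass (39.1 and 42.9 FPKM at day 8 and 39.3 and 36.1 at day 12). The channels thus gave single large changes in both directions rather than a shift of the whole list.

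Heart hormones and their receptors gave 6 rises and 4 falls of 15 (2 falls without day 8 replicate 1 or day 12 replicate 2). NPPB, the B-type natriuretic peptide, on chromosome 1 from 11857464 to 11858931, rose from 10.9 and 19.2 FPKM at day 8 to 121 and 113 at day 12 (log2 change 2.92, SE 0.37, adjusted p = 0.000639). CORIN, the protease that activates natriuretic peptides, rose by 1.30 (24.6 and 37.7 to 75 and 78 FPKM), and ADM, adrenomedullin, by 1.81. The CORIN call was lost without day 8 replicate 1 or either day 12 library (adjusted p from 0.000419 to 0.0944 over the alternatives). NPR1, the receptor of both NPPA and NPPB, fell from 34.4 and 30.3 FPKM at day 8 to 6.29 and 6.3 at day 12 (log2 change -2.19, SE 0.12, adjusted p = 2.78e-07), and APLNR, the apelin receptor of early heart precursors, fell from 41 and 43.7 FPKM at day 8 to 12.1 and 11.7 at day 12 (-1.75). NPPA, the atrial peptide, had 55.9 and 123 FPKM at day 8 and 296 and 304 at day 12 (log2 change 1.84, adjusted p = 0.0188). Its day 8 libraries stood more than 2-fold apart, and its call was lost without day 8 replicate 1, without either day 12 library, and with the 4 libraries alone (adjusted p from 0.00535 to 0.133 over the alternatives).

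Of 24 core cardiac transcription factors, 7 rose and 5 fell. IRX4, a factor of ventricular muscle, on chromosome 5 from 1877413 to 1887236, rose from 3.73 and 4.11 FPKM at day 8 to 28.7 and 28.3 at day 12 (log2 change 2.58, SE 0.46, adjusted p = 0.00369), and HEY2, which marks compact ventricular muscle, rose from 10.3 and 9.17 FPKM at day 8 to 27 and 25.9 at day 12 (log2 change 1.36, SE 0.10, adjusted p = 2.04e-06). NR2F2, which directs atrial identity, fell from 6.05 and 4.38 FPKM at day 8 to 2.57 and 2.12 at day 12 (log2 change -0.88, SE 0.16, adjusted p = 0.0013). HAND1, of the first heart field, fell by 0.95 (211 and 238 to 116 and 115 FPKM), and GATA4 by 0.49 (146 and 144 to 106 and 100.2), while HAND2 rose by 0.44 and TBX5 by 0.43. NKX2-5 had 67.8 and 107 FPKM at day 8 and 149 and 132 at day 12 (0.72, adjusted p = 0.35) and did not pass, nor did ISL1, of second heart field progenitors (-0.58, adjusted p = 0.0781). With the 4 libraries alone, 11 factors rose in place of 7. Of 14 cardiac progenitor genes, 0 rose and 7 fell, the largest falls being those of FGF8, of the second heart field (from 15 and 16.8 FPKM at day 8 to 6.88 and 5.19 at day 12, log2 change -1.27), and PDGFRA (50.4 and 51.7 to 23.6 and 25 FPKM, -1.04).

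Genes of mitochondrial energy production rose by small steps or did not pass, and none of the 4 lists held a fall. Among 38 subunits of respiratory complex I, 20 rose and 0 fell (median 0.35), and the largest rise was 0.67 in NDUFC1. Of 27 members of complexes II to IV, 14 rose and 0 fell (median 0.35). Of 16 ATP synthase genes, 8 rose and 0 fell (median 0.34). The citric acid cycle list, which overlaps complex II in SDHA and SDHB, had 15 of 21 up and 0 down (median 0.36), with MDH1, the cytosolic malate dehydrogenase, rising from 180.0 and 189.8 FPKM at day 8 to 391 and 382 at day 12 (log2 change 1.06, SE 0.20, adjusted p = 0.00223). Complex I as a whole held 0.749% and 0.774% of all FPKM at day 8 and 0.94% and 0.921% at day 12. These counts move with the estimate of spread. With the 4 libraries alone, 31 complex I genes, 22 of complexes II to IV and 16 of the ATP synthase rose. Without 1 library at a time, complex I gave 7 to 11, complexes II to IV 5 to 8, the ATP synthase 1 to 3 and the citric acid cycle 10 to 12, the lowest being without day 12 replicate 1 for complex I and complexes II to IV, without day 8 replicate 1 or day 12 replicate 2 for the citric acid cycle, and without any library but day 8 replicate 2 for the ATP synthase.

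Fatty acid oxidation genes rose in 24 of 36 cases, with 3 falls and a median of 0.38. PPARGC1A, a coactivator that drives this programme in muscle, rose from 10.5 and 9.69 FPKM at day 8 to 20.3 and 21.2 at day 12 (log2 change 0.97, SE 0.33, adjusted p = 0.0479), and its partner ESRRG, a nuclear receptor, from 3.65 and 4.27 FPKM at day 8 to 8.97 and 8.52 at day 12 (0.98). FABP3, the fatty acid carrier of heart muscle, rose from 61.2 and 59.1 FPKM at day 8 to 121 and 127 at day 12 (1.03), ETFDH, which passes electrons from the pathway to ubiquinone, by 1.03, and CPT1A by 1.24. ANGPTL4, an inhibitor of lipoprotein lipase, fell from 9.05 and 8.21 FPKM at day 8 to 3.8 and 3.48 at day 12 (-1.05), and PLIN2, a lipid droplet coat, by 0.47. Without day 8 replicate 1, 11 members rose, and without day 12 replicate 1 and 2, 12 and 15. The calls of FABP3 (adjusted p from 8.6e-06 to 0.108 over the alternatives) and PPARGC1A (3.68e-05 to 0.163) were lost without each of the 4 libraries in turn, and that of PPARGC1A also with a pseudocount of 0.1 FPKM.

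By counts of genes past the test, glycolysis stayed near the background of 19.5% and 18.2%, with 5 of 28 genes up and 4 down. Its median log2 change was 0.32, close to the 0.35 of respiratory complex I, so the 2 lists differ more in counts than in medians. The 4 falls were transporters and a regulator, not enzymes of the pathway itself. SLC16A1, a lactate carrier, fell from 132 and 135 FPKM at day 8 to 94.4 and 96.2 at day 12 (log2 change -0.48, SE 0.08, adjusted p = 0.000663), and PFKFB3, which sets the pace of phosphofructokinase, fell from 53.3 and 38.2 FPKM at day 8 to 26.3 and 26.9 at day 12 (-0.74). SLC2A1, the basal glucose transporter, had 210.0 and 102 FPKM at day 8 and 57.2 and 64.8 at day 12 (-1.25, adjusted p = 0.0128), a call lost without day 12 replicate 1 and with the 4 libraries alone (6.06e-05 to 0.245 over the alternatives). The other fall was that of SLC16A3, a lactate exporter (-0.98), and the rises were PFKL (0.28), PFKM (0.27), GAPDH (0.47), PGAM2 (1.52) and LDHB (0.45). The GAPDH call was lost without each of the 4 libraries in turn and with no filter (adjusted p from 0.000286 to 0.18 over the alternatives). The PFKM call (0.00513 to 0.0731) was lost without day 8 replicate 2 or day 12 replicate 1. The PFKL call (0.0257 to 0.337) was lost without day 8 replicate 2 or either day 12 library, with no filter on low values, after scaling to equal totals or by median of ratios, and with moderation that was neither trended nor robust. Without day 8 replicate 2 or day 12 replicate 1 only 2 genes rose, and with the 4 libraries alone 10. Several glycolytic and hypoxia-linked genes set the day 8 libraries apart. LDHA, lactate dehydrogenase A, had 554 and 245 FPKM at day 8 and 585 and 688 at day 12, BNIP3, a mitophagy receptor of hypoxia, 149.9 and 54.8 FPKM at day 8 and 123 and 141 at day 12, and HK2, an inducible hexokinase, 32.4 and 13.7 FPKM at day 8 and 13.2 and 14.3 at day 12. In each of these the first day 8 library was more than 2-fold above the second. Day 12 lay near the first for LDHA and BNIP3 and near the second for HK2. The part of this gap between replicates in the other results was not tested, and counts without each library are given beside them.

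TXNIP and ARRDC4, arrestin-like proteins that restrain glucose uptake and are targets of the glucose sensor MondoA, rose, while the rest of their list of 7 did not. TXNIP, on chromosome 1 from 145992435 to 145996600, rose from 26.4 and 28.6 FPKM at day 8 to 173 and 159 at day 12 (log2 change 2.55, SE 0.12, adjusted p = 1.04e-07). ARRDC4 rose from 3.5 and 3.3 FPKM at day 8 to 17.6 and 18.7 at day 12 (log2 change 2.12, SE 0.12, adjusted p = 3.57e-07). Both were even between replicates at each day. Of their relatives, ARRDC3 fell by 0.42 and ARRDC2 did not pass. The sensor genes MLXIP (0.03) and MLX (-0.02) did not pass either.

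All 30 genes of the mitosis list fell, with a median of -0.89, and 0 rose. PLK1, a kinase of mitotic entry and exit, on chromosome 16 from 23677656 to 23690367, fell from 23.9 and 25.9 FPKM at day 8 to 9.16 and 9.63 at day 12 (log2 change -1.32, SE 0.08, adjusted p = 4.73e-07). CDC20, which activates the anaphase-promoting complex, fell from 27.9 and 29.4 FPKM at day 8 to 9.91 and 12.6 at day 12 (log2 change -1.28, SE 0.10, adjusted p = 3.74e-06). MKI67, the proliferation marker, fell from 13.1 and 11.9 FPKM at day 8 to 5.07 and 5.76 at day 12 (-1.07), AURKB, of the chromosomal passenger complex, by 1.16, TOP2A, which disentangles chromosomes, by 1.10, and CDK1, the mitotic kinase itself, by 1.02. The smallest fall was that of BUB1, at 0.31, whose call was lost without day 8 replicate 1 or day 12 replicate 1 (adjusted p from 0.00741 to 0.112 over the alternatives). Without 1 library at a time, 29 or 30 fell. S phase and replication genes gave 0 rises and 15 falls of 30, with a median of -0.22, and 6 to 10 falls without 1 library, the lowest without day 12 replicate 1. UHRF1, which maintains DNA methylation at forks, fell from 7.25 and 8.31 FPKM at day 8 to 3.94 and 3.93 at day 12 (-0.83), and RRM2, the regulated subunit of ribonucleotide reductase, by 0.61. The helicase subunits MCM3 (0.06), MCM4 (-0.04), MCM6 (-0.07) and MCM7 (0.02), and the clamp PCNA (48.1 and 49.7 FPKM at day 8 and 43.7 and 47.2 at day 12), did not pass. All 30 mitosis genes were still above 2 FPKM in both day 12 libraries.

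Among cyclins, inhibitors and MYC genes, 4 of 19 rose and 6 fell. CDKN1A, the p21 inhibitor, rose from 7.77 and 8.79 FPKM at day 8 to 24.3 and 22.8 at day 12 (log2 change 1.40, SE 0.13, adjusted p = 1.1e-05). CCND1, cyclin D1, rose from 9.14 and 11.3 FPKM at day 8 to 23.6 and 22.7 at day 12 (1.11), and MYCN, a driver of fetal cardiomyocyte growth, from 13.4 and 12.6 FPKM at day 8 to 32.5 and 33.6 at day 12 (1.28). CCND3 fell by 0.76 and MYCL by 0.80. CCND2 (0.21) and MYC (0.08) did not pass, so the D cyclins and the MYC genes each held 1 rise and 1 fall.

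Promoter windows of the 2 cell cycle lists were searched for 2 motifs known from such genes. CCAAT, the box bound by NF-Y, stood in 25 of 31 mitosis windows and 24 of 33 S phase windows, against 34.1% of all windows. TTTGAA, the cell cycle genes homology region or CHR, through which the DREAM complex keeps mitotic genes silent in resting cells, stood in 20 of 31 mitosis windows, from 18 of 25 genes, in 1 of 33 S phase windows, that of RRM1, and in 10.7% of all. Within the mitosis list, the 18 genes with a CHR match had a median log2 change of -0.91 and the 7 without one -0.83, so the fall was not limited to genes with a match in these windows. The windows of CDC20 and CCNB2, cyclin B2 (25.9 and 26.1 to 11.1 and 13.6 FPKM, log2 change -1.02), are shown because they hold both motifs. They lie at chr1:43358731-43359030 and chr15:59104896-59105195, both on the plus strand. Capitals mark CCAAT, and TTTGAA or its complement TTCAAA.
CDC20: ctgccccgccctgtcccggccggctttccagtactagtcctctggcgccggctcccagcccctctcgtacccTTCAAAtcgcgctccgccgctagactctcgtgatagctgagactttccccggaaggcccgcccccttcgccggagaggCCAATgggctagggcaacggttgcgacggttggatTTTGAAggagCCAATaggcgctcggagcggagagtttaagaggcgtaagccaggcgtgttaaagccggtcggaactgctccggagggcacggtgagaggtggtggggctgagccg
CCNB2: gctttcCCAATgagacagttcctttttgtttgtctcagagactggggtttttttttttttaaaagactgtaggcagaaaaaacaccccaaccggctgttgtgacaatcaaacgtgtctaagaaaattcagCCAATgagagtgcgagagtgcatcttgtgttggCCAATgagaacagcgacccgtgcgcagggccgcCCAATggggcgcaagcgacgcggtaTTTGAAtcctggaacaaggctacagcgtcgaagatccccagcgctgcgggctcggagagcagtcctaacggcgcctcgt

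Epicardial genes fell as a group. The epicardium is the mesothelial sheet around the heart. Of 19 genes, 13 fell and 3 rose, with a median of -1.23. WT1, its defining transcription factor, went 42.5 and 31.6 to 4.06 and 4.65 FPKM (-2.81), BNC1, another mesothelial factor, 43 and 31.7 to 6.51 and 6.83 (-2.31), and ITGA8, an integrin chain, 25.5 and 20.5 to 2.31 and 2.77 (-2.76). The simple epithelial keratins KRT8 (1149 and 1101 to 474 and 485 FPKM), KRT18 (602 and 600.1 to 243 and 246) and KRT19 (421 and 343 to 165 and 158) fell by 1.23, 1.29 and 1.23. These keratins are not confined to epicardium, and the epithelial list counts them too. The 3 rises were CLDN1, a claudin (1.46), SEMA3D, a guidance cue (1.07), and DMKN, dermokine (1.0). TCF21, which marks the fibroblast branch of the epicardium, did not pass (10.2 and 8.82 FPKM at day 8 and 12.1 and 12.4 at day 12). TBX18 had 41.7 and 23 FPKM at day 8 and 13.7 and 15.5 at day 12 (-1.04), a call lost without day 12 replicate 1 and with the 4 libraries alone (adjusted p from 0.000261 to 0.104 over the alternatives).

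Of 23 collagen genes, 13 fell and 4 rose. COL3A1, on chromosome 2 from 188974320 to 189012746, fell from 722 and 697 FPKM at day 8 to 122 and 130.2 at day 12 (log2 change -2.49, SE 0.11, adjusted p = 8.06e-08), COL1A1 from 656 and 552 FPKM at day 8 to 127 and 124 at day 12 (-2.26) and COL1A2 by 1.54. The 4 rises were the basement membrane chains COL4A1 (55.9 and 56.7 to 93.3 and 93.1 FPKM, 0.72) and COL4A2 (0.67) and the cartilage-type chains COL9A1 (1.24) and COL9A2 (0.80). The COL9A2 call was lost without day 8 replicate 2 or either day 12 library (adjusted p from 0.000197 to 0.0682 over the alternatives). Without day 12 replicate 1, 9 collagens fell. Of 27 other matrix and fibroblast genes, 14 fell and 7 rose. FBLN1, fibulin, fell from 109 and 106 FPKM at day 8 to 33.5 and 34.1 at day 12 (-1.65), SPARC, which binds collagen, from 615 and 537 FPKM at day 8 to 256 and 249.7 at day 12 (-1.18), FN1, fibronectin, by 1.08, and PDGFRB, of pericytes and fibroblasts, by 1.34. LAMA2, the laminin chain of the muscle basement membrane, rose from 0.82 and 1.11 FPKM at day 8 to 13.7 and 15.6 at day 12 (log2 change 2.99, SE 0.18, adjusted p = 4.73e-07), and VCAN, versican, rose by 1.0. Laminin chains thus split, with LAMA1, the embryonic chain, at 47.3 and 45 FPKM at day 8 and 19 and 17.2 at day 12 (-1.31).

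Smooth muscle genes went both ways, with 6 up and 4 down of 14 (2 down without day 8 replicate 2) and a median of 0. CNN1, calponin, rose from 62.5 and 69.2 FPKM at day 8 to 130.4 and 139 at day 12 (1.02) and TAGLN, transgelin, from 85.2 and 113 FPKM at day 8 to 186 and 190.5 at day 12 (0.93), while ACTA2, smooth muscle actin, had 488 and 639 FPKM at day 8 and 285 and 281 at day 12 (-0.98), a call lost without day 8 replicate 2 (adjusted p from 0.000315 to 0.0611 over the alternatives). Early cardiomyocytes also express these genes. Of 15 endothelial genes, 6 fell and 1 rose, with TEK, the angiopoietin receptor, from 15.5 and 17.6 FPKM at day 8 to 4.01 and 3.99 at day 12 (log2 change -1.81, SE 0.14, adjusted p = 2.43e-06) and KDR, the VEGF receptor, from 43.9 and 50.3 FPKM at day 8 to 32.8 and 31.6 at day 12 (-0.53), while CDH5 (-0.30) and PECAM1 (-0.14), junction proteins that define the endothelium, did not pass. Of 11 blood genes, 7 fell and 2 rose. CD34 fell from 4.28 and 6.11 FPKM at day 8 to 2.19 and 1.74 at day 12 (-1.05) and the embryonic globin HBE1 from 1.56 and 1.57 FPKM at day 8 to 0.31 and 0.39 at day 12 (-0.93), while the alpha-globins HBA1 (0.3 and 0.2 to 5.86 and 3.17 FPKM) and HBA2, listed at 0 in both day 8 libraries and at 4.97 and 6.04 FPKM at day 12, rose. HBA1 and HBA2 are near-identical copies whose reads can be exchanged.

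Of 24 secreted liver proteins, 16 rose, 1 fell and 7 did not pass, with a median of 1.73. AFP, alpha-fetoprotein, on chromosome 4 from 73431138 to 73456174, rose from 1.53 and 1.67 FPKM at day 8 to 312 and 222 at day 12 (log2 change 6.67, SE 0.36, adjusted p = 7.85e-06). AHSG, fetuin-A, rose from 0.11 and 0.22 FPKM at day 8 to 20.7 and 14 at day 12 (log2 change 3.95, SE 0.26, adjusted p = 2.14e-06), SERPINA1, the inhibitor of elastase, from 13.7 and 21 FPKM at day 8 to 120.1 and 106 at day 12 (2.66), and RBP4, the retinol carrier of plasma, from 0.32 and 0.34 FPKM at day 8 to 16.3 and 8.3 at day 12 (3.25). FGA, FGB and FGG, the fibrinogen chains, rose by 2.90, 2.92 and 2.12, and ALB, albumin, from 0.26 and 0.55 FPKM at day 8 to 7.01 and 8.67 at day 12 (2.65). In AFP, AHSG, RBP4, FGA (0.49 and 0.92 to 16.7 and 7.99 FPKM) and FGB (0.62 and 0.6 to 14.6 and 8.45 FPKM) the first day 12 library was the higher one, and the days did not overlap. TTR, transthyretin, did not pass (20.5 and 57.2 FPKM at day 8 and 147 and 90.0 at day 12, adjusted p = 0.0593). APOE, which many cell types make, was the fall (from 452 and 471 FPKM at day 8 to 178 and 155 at day 12, log2 change -1.47). The counts without 1 library at a time were 15 to 17 up. Of 9 endoderm transcription factors tested, 3 rose and 3 fell, with HNF4A, a master regulator of hepatocytes, from 0.73 and 1.44 FPKM at day 8 to 2.95 and 1.9 at day 12 (0.72), PROX1 at 0.85, FOXA3, GATA3 and HHEX at -0.81, -1.24 and -1.40, and FOXA2 not past the test (1.42 and 2.72 FPKM at day 8 and 1.41 and 0.89 at day 12). The HHEX call was lost without either day 12 library and with the 4 libraries alone (adjusted p from 0.000302 to 0.144 over the alternatives). That of HNF4A (0.00199 to 0.154) was lost without day 8 replicate 1 or day 12 replicate 1 and with a pseudocount of 0.1 FPKM. Without day 8 replicate 1 or day 12 replicate 1, 1 factor rose. SOX17, SOX2, NKX2-1 and PDX1 were among 13 fixed members that did not pass the filter.

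GTTAAT, the half-site of the liver factor HNF1, was found in 7 of 26 promoter windows of the hepatic list, from 6 of 19 genes, against 4.42% of all windows. AFP and ALB are neighbours on chromosome 4, and their windows are shown because AFP had the largest rise of its list and both hold the half-site. Capitals mark GTTAAT in both, and TATAAA in AFP; in ALB those letters were not found. They lie at chr4:73435971-73436270 and chr4:73404037-73404336, on the plus strand, that of AFP at a RefSeq start inside the span given above.
AFP: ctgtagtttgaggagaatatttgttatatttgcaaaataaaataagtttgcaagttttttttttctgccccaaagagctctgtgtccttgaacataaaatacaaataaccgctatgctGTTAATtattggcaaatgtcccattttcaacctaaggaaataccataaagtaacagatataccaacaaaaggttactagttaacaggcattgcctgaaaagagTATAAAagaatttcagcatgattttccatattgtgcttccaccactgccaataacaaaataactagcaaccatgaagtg
ALB: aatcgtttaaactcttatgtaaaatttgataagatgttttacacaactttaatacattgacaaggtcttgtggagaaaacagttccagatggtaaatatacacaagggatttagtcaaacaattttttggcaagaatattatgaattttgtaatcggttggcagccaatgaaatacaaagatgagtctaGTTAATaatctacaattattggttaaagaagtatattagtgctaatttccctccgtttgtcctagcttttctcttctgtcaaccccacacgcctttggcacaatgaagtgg

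Epithelial genes went both ways. Of adhesion genes and keratins, 11 of 21 rose and 4 fell, the falls being KRT8, KRT18, KRT19 and VIM (-0.28). S100A14, an epithelial calcium-binding protein, rose from 0.4 and 0.91 FPKM at day 8 to 46.8 and 26.8 at day 12 (log2 change 4.48, SE 0.23, adjusted p = 3.14e-07). The tight junction genes CLDN4 (1.02 and 1.79 to 4.67 and 4.66 FPKM, 1.25), CLDN6 (90.0 and 95.4 to 172 and 172, 0.88) and CLDN7 (0.98 and 3.42 to 5.77 and 4.94, 1.10), the adhesion molecule EPCAM (18.2 and 25.9 to 39.9 and 40.4, 0.86) and KRT7 (1.79) rose with it. CDH1 did not pass (6.95 and 6.6 FPKM at day 8 and 5.78 and 6.3 at day 12), and CDH2, the cadherin of heart muscle, rose from 124 and 128 FPKM at day 8 to 227 and 223 at day 12 (0.83). These rises stood beside those of the hepatic markers, whose summed level is given above, and the part of endodermal cells in them was not tested. Without day 12 replicate 1 and 2, 6 and 7 rose. The CLDN7 call was lost without day 12 replicate 1 and with the 4 libraries alone (adjusted p from 8.34e-05 to 0.136 over the alternatives), and the VIM call without day 8 replicate 1 or either day 12 library (0.00121 to 0.11).

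WNT ligands, receptors and secreted inhibitors gave 13 falls and 5 rises of 30 (2 rises without day 8 replicate 1 or day 12 replicate 1). SHISA3, an inhibitor that traps WNT and FGF receptors inside the cell, went 44.1 and 41.2 to 0.16 and 0.35 FPKM (-5.12), and RSPO1, an R-spondin, which strengthens WNT signals and is made by mesothelium, fell from 42.7 and 26.4 FPKM at day 8 to 2.15 and 2.06 at day 12 (log2 change -3.48, SE 0.24, adjusted p = 1.1e-05). The decoy receptors SFRP5 (135 and 109 to 23.4 and 25.7 FPKM, -2.26) and SFRP1 (125 and 109 to 69.5 and 70.3, -0.73) fell, as did the receptor FZD7 (77 and 73.1 to 19.8 and 17.9, -1.94) and the ligands WNT11 (-0.51) and WNT5A (-0.65). WNT5B (7.03 and 9.47 to 20.0 and 21.4 FPKM, 1.24) and DKK3 (0.90) rose. Of 15 target and feedback genes, 4 rose and 2 fell, close to the background. TNFRSF19 rose from 20.5 and 17.8 FPKM at day 8 to 72.2 and 72 at day 12 (1.86), MSX1 fell from 22.9 and 24.9 FPKM at day 8 to 4.26 and 4.05 at day 12 (-2.27), and the feedback genes RNF43 (-0.27), ZNRF3 (-0.05) and NKD1 (-0.16) did not pass.

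In the BMP pathway, 4 of 25 genes rose and 4 fell, near the background (2 rises without either day 12 library). BMP4, the mesoderm inducer, fell from 104 and 105 FPKM at day 8 to 23.1 and 20.0 at day 12 (log2 change -2.23, SE 0.09, adjusted p = 3.74e-08), and BMP6 rose from 0.16 and 0.34 FPKM at day 8 to 3.87 and 3 at day 12 (1.82). BMP2 (37.8 and 48 FPKM at day 8 and 50.1 and 47.3 at day 12), BMP5 (-0.05) and BMP7 (-0.03) did not pass, nor did the target genes ID1 (-0.28), ID2 (-0.32), ID3 (-0.21) and SMAD6 (-0.17). Of 18 TGF-beta genes, 6 rose and 7 fell, with TGFB1 from 61.3 and 60.4 FPKM at day 8 to 29.8 and 27.7 at day 12 (-1.06), TGFB2 at -0.74, the co-receptor TGFBR3 at -1.29 and INHBA, of activin A, at 1.13. The TGF-beta target TGFBI was lower too (-1.17), a call lost without day 8 replicate 1 or day 12 replicate 1 (adjusted p from 2.31e-05 to 0.0599 over the alternatives).

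FGF signalling genes fell in 10 of 21 cases and rose in 4. The receptors FGFR1 (38.9 and 38 to 23.4 and 21.2 FPKM, -0.76), FGFR2 (64.8 and 51.5 to 20.7 and 19.6, -1.47) and FGFR3 (54.9 and 49.1 to 18.8 and 16.4, -1.51) all fell, as did the ERK feedback genes DUSP6 (34.5 and 49.5 to 13 and 11.7, -1.67) and SPRY4 (-0.76). Ligands turned over, with FGF8 lower, as above, and FGF18 higher (from 1.78 and 1.95 FPKM at day 8 to 12.6 and 11.8 at day 12, 2.21). FGF9, a ligand that epicardium and endocardium send to heart muscle, was higher too (0.4 and 0.33 to 2.16 and 2.15 FPKM, 1.21). Notch genes fell in 8 of 16 cases with 2 rises, among them the ligand JAG1 (38.5 and 40.9 to 21.9 and 21.6, -0.84), the receptors NOTCH1 (-0.91) and NOTCH3 (-0.69) and the target HEYL (-0.94). The 2 rises were HEY2, given above, and MFNG, a glycosyltransferase that modifies the receptors (0.55), while HEY1 did not pass (-0.09). The MFNG call was lost without day 12 replicate 2 (adjusted p from 0.0026 to 0.0569 over the alternatives). Hedgehog genes gave 6 falls and 0 rises of 10, led by the co-receptor BOC (from 15.8 and 15.9 FPKM at day 8 to 3.48 and 3.47 at day 12, log2 change -1.91), with the target PTCH1 lower (-0.62) and SMO, the signal transducer, not past the test (-0.04).

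Insulin-like growth factor genes gave 8 falls and 0 rises of 17. IGF2, an imprinted fetal growth factor, held the highest level of the secreted signals described here and fell from 1366 and 1087 FPKM at day 8 to 236 and 230.3 at day 12 (log2 change -2.38, SE 0.18, adjusted p = 7.85e-06). The RNA-binding protein IGF2BP2 (-0.39) and the chromatin protein HMGA1 (435 and 503 to 257 and 252 FPKM, -0.88), both fetal genes, fell too. The receptors IGF1R (-0.13) and INSR (0.25) did not pass. The count was 5 falls without any 1 library. In the retinoic acid pathway, 4 of 15 rose and 3 fell (2 falls without any 1 library). RXRG, a retinoid X receptor, rose from 4.75 and 4.95 FPKM at day 8 to 29.6 and 26.3 at day 12 (log2 change 2.31, SE 0.20, adjusted p = 1.82e-05), and ALDH1A1, which oxidizes retinal, from 0.82 and 1.79 FPKM at day 8 to 13.5 and 10.3 at day 12 (2.51). The retinoic acid binding proteins CRABP1 (7.81 and 8.18 to 1.45 and 1.22 FPKM, -1.95) and CRABP2 (145 and 172 to 59 and 55.6, -1.45) fell.

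Genes of earlier stages of development gave more falls than rises. Of 15 pluripotency genes, 11 fell and 1 rose, with a median of -0.59. LIN28A, an RNA-binding protein that blocks let-7, on chromosome 1 from 26410778 to 26429722, fell from 70.5 and 84 FPKM at day 8 to 14.6 and 14.4 at day 12 (log2 change -2.33, SE 0.09, adjusted p = 3.74e-08), LIN28B from 18.3 and 17.6 FPKM at day 8 to 6.18 and 6.19 at day 12 (-1.40), and DPPA4 from 29.9 and 28.8 FPKM at day 8 to 10.1 and 10.2 at day 12 (-1.45). POU5F1 (3.73 and 3.01 FPKM at day 8 and 2 and 3.77 at day 12) and NANOG (0.81 and 1.14 FPKM at day 8 and 1.01 and 1.45 at day 12), the core factors, were already near the filter at day 8 and did not pass. The single rise was TDGF1, the NODAL co-receptor CRIPTO (from 12.9 and 13.6 FPKM at day 8 to 32.6 and 31.5 at day 12, log2 change 1.21). NODAL itself, on chromosome 10 from 70432315 to 70447951, fell from 11.6 and 10.4 FPKM at day 8 to 1.26 and 1.36 at day 12 (log2 change -2.37, SE 0.17, adjusted p = 1.95e-06), as did FOXH1, its transcriptional partner (37.5 and 38 to 15.6 and 13.6 FPKM, -1.32), while LEFTY2, a NODAL target and inhibitor, rose from 2.78 and 3.38 FPKM at day 8 to 13.4 and 12.5 at day 12 (1.78). So within the NODAL list of 11 genes, 5 fell, the ligand among them, and 2 rose, its co-receptor and its inhibitor. Without either day 8 library, 3 fell.

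HOX genes gave 8 falls and 0 rises among 10 tested of 30 fixed, and the 8 are neighbours in the HOXB cluster on chromosome 17, from 48528526, where the HOXB1 entry starts, to 48633572, where that of HOXB7 ends, all on the minus strand. HOX genes specify position along the body, and the 3′ members of the cluster, with low numbers, act farthest forward. HOXB2 fell from 40.1 and 38.4 FPKM at day 8 to 17.4 and 16.1 at day 12 (-1.18) and HOXB3 from 31 and 28 FPKM at day 8 to 13.6 and 11.7 at day 12 (-1.16). HOXB4 fell from 16.1 and 16.2 FPKM at day 8 to 3.62 and 2.78 at day 12 (log2 change -2.04, SE 0.11, adjusted p = 2.77e-07), HOXB5 from 6.3 and 5.77 FPKM at day 8 to 0.54 and 0.61 at day 12 (log2 change -2.16, SE 0.12, adjusted p = 3.57e-07) and HOXB6 from 5 and 5.2 FPKM at day 8 to 0.66 and 0.52 at day 12 (log2 change -1.94, SE 0.22, adjusted p = 6.18e-05). HOXB7 and HOXB8, at 2.67 and 2.01 to 0.45 and 0.5 and 1.49 and 0.94 to 0.1 and 0.1 FPKM, fell by 1.17 and 1.0, where the added 1 FPKM limits the log2 change. HOXB1, at the other end, had 1.73 and 0.83 FPKM at day 8 and 0.31 and 0.25 at day 12, and its call was lost without day 12 replicate 2 (adjusted p from 0.00334 to 0.0571 over the alternatives). Without 1 library, 7 or 8 fell. In the annotation HOXB3 spans HOXB4 and HOXB5, and overlaps HOXB6, on the same strand, and HOXB7 spans HOXB8, so reads of shared exons could be split between them. Outside this cluster only HOXC6 and HOXC8 passed the filter, and neither passed the test.

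Stress and growth lists moved in part. Of 19 p53 response genes, 9 rose and 2 fell (5 to 7 rises without 1 library, the lowest without either day 12 library), with CDKN1A first and GDF15, a stress cytokine, next (from 1.72 and 1.87 FPKM at day 8 to 5.58 and 4.87 at day 12, log2 change 1.15). MDM2 rose by 0.37, and BAX (-0.19) and BBC3 (0.23), which promote cell death, did not pass. Among 22 genes of the integrated stress and unfolded protein responses, 4 rose and 7 fell (3 falls without day 8 replicate 1 and 4 without either day 12 library). PHGDH, the first enzyme of serine synthesis, fell from 212 and 195 FPKM at day 8 to 49.9 and 51.4 at day 12 (log2 change -1.99, SE 0.11, adjusted p = 2.96e-07), while PSPH, the last enzyme (-0.18), and the regulator ATF4 (-0.03) did not pass. Of 26 cholesterol synthesis genes, 11 rose and 1 fell (median 0.22), with STARD4, a sterol carrier, from 20.1 and 14.2 FPKM at day 8 to 32.2 and 36.7 at day 12 (0.98). The count of rises was 5 without day 8 replicate 2 and 6 and 7 without day 12 replicate 1 and 2. Cytosolic ribosomal proteins gave 0 rises and 4 falls of 44, with a median of -0.04 and log2 changes from -0.31 to 0.18. They held 10.2% and 10% of all FPKM at day 8 and 9.61% and 9.68% at day 12. With the 4 libraries alone, 5 rose and 11 fell, and without any 1 library 1 or 2 fell.

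Neural, hormone, redox and early response genes held single large changes. Of 13 neural genes, 6 rose and 2 fell. STMN2, a neuronal microtubule regulator, rose from 0.42 and 0.81 FPKM at day 8 to 5.18 and 6.55 at day 12 (log2 change 2.09, SE 0.15, adjusted p = 1.63e-06), and SOX10, of the neural crest, from 0.1 and 0.25 FPKM at day 8 to 2.09 and 1.86 at day 12 (1.34). PRPH, the intermediate filament peripherin, fell from 16.1 and 16.6 FPKM at day 8 to 0.31 and 0.24 at day 12 (log2 change -3.77, SE 0.50, adjusted p = 0.000939), and GAP43, of growing axons, from 28.3 and 21.1 FPKM at day 8 to 7.31 and 6.93 at day 12 (-1.65). Of 8 neuropeptide and hormone genes, 2 rose and 3 fell. PENK, the enkephalin precursor, rose from 1.67 and 0.79 FPKM at day 8 to 52.8 and 50.7 at day 12 (log2 change 4.59, SE 0.24, adjusted p = 1.33e-06). SST, somatostatin, fell from 11.9 and 8.13 FPKM at day 8 to 0.29 and 0.29 at day 12 (log2 change -3.07, SE 0.15, adjusted p = 1.37e-07), and NPY, neuropeptide Y, from 34.2 and 69.7 FPKM at day 8 to 3.12 and 2.7 at day 12 (-3.68). For SST and NPY, both day 8 libraries stood above both day 12 libraries, though the NPY pair at day 8 was uneven. Of 17 oxidative stress and metallothionein genes, 3 rose and 5 fell (3 falls without either day 12 library), with the metallothioneins MT2A (from 5.33 and 5.99 FPKM at day 8 to 1.25 and 1.32 at day 12, log2 change -1.54) and MT1E (1.69 and 2.39 to 5.45 and 4.66 FPKM, 1.0) in opposite directions. Of 15 immediate early genes, 6 rose and 4 fell (1 fall without day 8 replicate 2 and 2 without either day 12 library), led by FOSL2, a partner of JUN (from 7.06 and 6.09 FPKM at day 8 to 2.84 and 2.53 at day 12, log2 change -1.04). Of 22 genes of muscle energy stores and oxygen supply, 7 rose and 1 fell (4 rises without any 1 library but day 8 replicate 1, and 13 with the 4 alone), with CKMT2, the creatine kinase of muscle mitochondria, from 4.82 and 3.77 FPKM at day 8 to 9.07 and 8.88 at day 12 (0.92).

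Whether the vehicle course differed from that of treated cells was tested by the difference of the day changes, a contrast in which the courses share no library. With F-53B in place of DMSO, the day change differed for 2306 genes, 16.4% of those tested, of which 9.35% of all tested were higher (1317) and 7.02% lower (989). With PFOS it differed for 198 genes, 1.41%, of which 0.611% were higher (86) and 0.795% lower (112). After scaling to equal FPKM totals, the PFOS split was 71 higher and 158 lower. The PFOS count was 41 and 45 without day 12 DMSO replicate 1 and 2, 114 and 100 without day 8 DMSO replicate 1 and 2, 122 without day 8 PFOS replicate 1, and 67 and 339 without day 12 PFOS replicate 1 and 2. The F-53B count was 1299 without day 12 DMSO replicate 2, 1388 without replicate 1, and 1405 and 1370 without day 8 F-53B replicates 1 and 2.

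The fall of mitosis genes was common to the 3 media. All 30 fell with DMSO, all 30 with F-53B and all 30 with PFOS, with medians of -0.89, -1.25 and -1.15, where 14% of all tested genes fell with F-53B and 19.6% with PFOS. The day change of 4 of the 30 was lower with F-53B than with DMSO, and that of 0 of 30 with PFOS. Z-disc genes likewise rose in 15, 14 and 15 of 18 cases, where 16% of all tested genes rose with F-53B and 19.7% with PFOS, and 2 and 0 of 18 differed from DMSO in day change. These lists are close in the 3 courses by their counts, though a missed call does not show equal change.

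Epicardial, collagen, hepatic and cholesterol genes showed the courses apart. Of 19 epicardial genes, the day change was higher with F-53B for 14 and lower for 1, and with PFOS higher for 2 and lower for 1. WT1, which fell in DMSO, differed by 2.4 (SE 0.23) with F-53B and by 1.25 (SE 0.23) with PFOS. The PFOS call of WT1 was kept without day 8 DMSO replicate 2 or day 8 PFOS replicate 1 and lost without any other single library of that contrast and after scaling to equal totals (adjusted p from 0.0194 to 0.131 over the alternatives). Of 23 collagens, 11 were higher and 1 lower with F-53B, and 1 higher with PFOS. Of 24 hepatic genes, 13 were lower and 0 higher with F-53B, and 0 lower and 1 higher with PFOS. AFP, which rose in every course, did so by 6.67 with DMSO, 2.57 with F-53B and 4.21 with PFOS. Its difference from DMSO passed with F-53B (-4.10) and did not pass with PFOS. Of 26 cholesterol synthesis genes, which rose on balance in DMSO, 21 were lower with F-53B and 6 with PFOS. The citric acid cycle, with 15 of 21 up in DMSO and in PFOS, had 0 up and 0 down with F-53B, and 4 of its genes differed from DMSO in day change, all lower. The day 12 F-53B libraries differed more than 2-fold from each other in 134 genes, against 15 for day 12 DMSO, and the part of that spread in these differences was not tested.

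**Figure D4:**
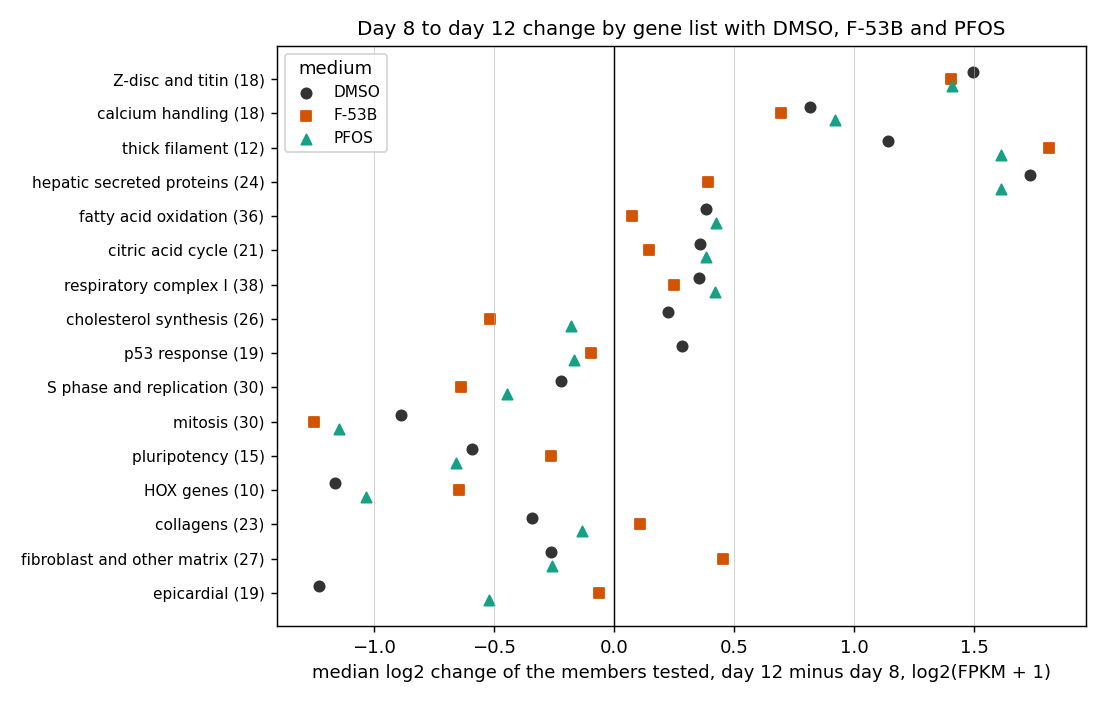
Median log2 change from day 8 to day 12 of 16 gene lists with DMSO (circles), F-53B (squares) and PFOS (triangles), from 2 libraries per day and medium. The mitosis medians are -0.89, -1.25 and -1.15, while the medians for hepatic secreted proteins are 1.73, 0.39 and 1.61.

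TXNIP and ARRDC4 showed a difference with both compounds. In DMSO they rose by 2.55 and 2.12 on the log2 scale, whereas with F-53B their day changes were 0.53 and 0.07 and with PFOS 0.28 and -0.11. The TXNIP libraries of day 8 held 109.9 and 103 FPKM with F-53B and 168 and 133 with PFOS, and those of day 12 169 and 141 and 172 and 191. So the treated day 8 libraries were already above those of DMSO, and the day 12 libraries lay close to them. The differences of the day changes were -2.02 and -2.05 with F-53B and -2.27 (SE 0.17, adjusted p = 0.000147) and -2.23 (SE 0.17, adjusted p = 0.000147) with PFOS.  S100A14 rose by 4.48 in DMSO, while its day changes with F-53B and PFOS, 0.08 and 0.52, did not pass, and both differences from DMSO did, at -4.40 (SE 0.33) and -3.96 (SE 0.33).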

How the data were processed

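FPKM values were deposited by the authors, 1 file per library, per the file headers. Per the submitters' processing notes, HISAT, Bowtie2 and RSEM were used with GRCh38 patch 11; versions, order, annotation and strand use are not given in the sources used here. FPKM holds no read depth, and no count model was used. A value within a sample depends on all others, so a few abundant genes can shift the rest.

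A linear model of log2(FPKM + 1) gave each of the 6 groups its own mean over 12 libraries (limma 3.58.1, R 4.3.3), with trended and robust moderation and 6 residual degrees of freedom. Genes at 1 FPKM or more in at least 2 libraries entered, p-values are two-sided and Benjamini-Hochberg adjusted over all 14080 genes, and folds of low genes are understated by the pseudocount. The fit was tested on simulated data of 13462 genes, and found 94% of set log2 differences of 1 and 100% of those of 2, with 11 unchanged genes called. The changed genes, 100 of each size, were drawn only from those above 5 FPKM at day 8, with independent normal noise. These figures therefore do not cover genes at lower levels, nor data in which as many genes change as here. Named genes are the 15 largest rises and falls with a mean of at least 5 FPKM and no overlap, the 4 largest changes past the test in each list, paralog pairs and a few set markers; the others were chosen after their values were seen. The lists and the comparison were chosen with earlier results of these data known. Alternatives were another pseudocount, filters, scalings, moderation, a block on the replicate number, the 4 DMSO libraries alone and leaving out each library. Promoter windows came from RefSeq (GRCh38.p14) and gene positions from GENCODE 29 on GRCh38. The files list 20042 genes, of which 1002 have no value. A few genes are not reported here.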

Additional observations from a re-analysis of the deposited data

Results flagged for a closer look

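The changes listed here differ between the vehicle course and a treated course by the test of the difference itself, limma's contrast of the day 12 minus day 8 changes, and are given as differences of log2(FPKM + 1) with the compound's change first. No cause was tested.

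With F-53B, day changes were lower than in DMSO for S100A14 (-4.40), AFP (-4.10), NPPB (-3.21), PENK (-3.02), APOA1, the main protein of high-density lipoprotein (-2.91), CORIN (-2.78), TXNIP (-2.02) and ARRDC4 (-2.05). NPPB went by 2.92 in DMSO and by -0.29 with F-53B, and CORIN by 1.30 and -1.48. Day changes were higher for SFRP2, a WNT decoy receptor (4.54), ALDH1A2, which makes retinoic acid (4.29), ITLN1, a mesothelial lectin (3.94), NPY (3.85), ACTA2 (3.45), MYH6 (3.09), WT1 (2.40) and TBX18 (1.33). For SFRP2, ALDH1A2 and ITLN1 the DMSO change was 0.07, 0.32 and 0.16, and the change with F-53B 4.61, 4.61 and 4.10. The MYH6 difference kept its call without either day 12 F-53B library and lost it without each other single library of the contrast. That of TBX18 kept its call without either day 8 DMSO library. It was lost without each other single library and after scaling to equal totals.

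With PFOS, day changes were lower than in DMSO for S100A14 (-3.96), TXNIP (-2.27), ARRDC4 (-2.23), PRSS35, a serine protease family member (-2.02), CDKN1A (-1.80) and TUBB2B, a beta-tubulin (-1.77). CDKN1A went by 1.40 in DMSO and by -0.40 with PFOS. Day changes were higher for NPY (2.58), TFPI2, a matrix protease inhibitor (1.63), PLVAP, of endothelial diaphragms (1.55), SFRP5 (1.53), DPEP1, a membrane dipeptidase (1.48), TNC, tenascin C (1.42), and WT1 (1.25). SFRP5 went by -2.26 in DMSO and by -0.73 with PFOS, and TNC by -1.68 and -0.26. The NPY difference kept its call without either day 8 DMSO library. It was lost without each other single library of the contrast and after scaling to equal totals. That of TFPI2 was lost without every single library but day 8 PFOS replicate 2. That of DPEP1 was lost without day 8 DMSO replicate 1, either day 12 DMSO library or day 12 PFOS replicate 1.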

How the results depend on the processing

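The labels give the same replicate numbers in each group, but same-numbered libraries did not deviate together (r from -0.378 to 0.186 over 15 pairs of groups, -0.118 between the DMSO days). They were therefore treated as unpaired. With 1 pair of replicates per group, these correlations cannot show whether same-numbered libraries shared a batch or a culture. With the replicate block the count of genes past the test from day 8 to day 12 was 5012 over 12 libraries and 5314 over the 4 DMSO libraries, against 5308 without it, and 5862 over those 4 with no block; crossing the numbers, chosen after seeing the data, gave 6257. Leaving out 1 library at a time, the count ran from 3299 to 3911, the count of differences from the F-53B course from 1299 to 2333 and from the PFOS course from 41 to 339, and the count of paralog pairs whose days did not overlap from 14 to 18 (13 with all libraries, 14 with 1 FPKM added). Of 305 named or described genes, 49 lost their call without at least 1 library, 9 with a pseudocount of 0.1 FPKM and 6 with the 4 libraries alone. With those 4 libraries alone, 8 genes gained a call, namely TNNT2, TNNI1, TNNI3, MYL4, CKM, COX6A2, COX6A1 and ENO3. With the replicate block, 8 calls were lost over 12 libraries, and 7 were lost and 9 gained over the 4 DMSO libraries. The lost calls named gene by gene leave out the block settings, while the ranges of adjusted p cover them. As for the paralog pairs, leaving out a library can keep or raise the count without overlap but cannot lower it. The range of that count is therefore no check on it. Leaving out 1 library at a time, 3 paralogs changed sign on the log2 scale, none of which passed the test with all libraries: GJA5, from -0.137 without day 8 DMSO replicate 1 to 0.407 without replicate 2, and ENO1 and PGAM1, from 0.651 and 0.306 without day 8 DMSO replicate 1 to -0.00594 and -0.0513 without replicate 2. Of 42 other genes given as not past the test, 0 to 4 passed under each alternative, apart from 10 with crossed numbers. The share of rises among calls in DMSO was 51.7%, and 47.6% after scaling to equal totals, and for the PFOS difference 43.4% and 31.0%. The read depth behind each value is unknown, so no counting error can be given.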

Other observations

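Several of the largest changes of the vehicle course lay outside the lists. MLIP, a lamin-interacting protein of heart and skeletal muscle, rose from 0.34 and 0.57 FPKM at day 8 to 15.3 and 16.7 at day 12 (log2 change 3.55, SE 0.23, adjusted p = 1.67e-06). FAM189A2, a membrane protein, rose from 12.3 and 14.9 FPKM at day 8 to 119 and 118 at day 12 (3.04), and CST1, a secreted cystatin, from 0.31 and 0.61 FPKM at day 8 to 14.6 and 9.93 at day 12 (3.17). For each of the 3 genes, both day 12 libraries stood well above both day 8 libraries.

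Among the falls, LCN1, a lipocalin, went from 49.8 and 43.6 FPKM at day 8 to 0.72 and 0.97 at day 12 (log2 change -4.69, SE 0.15, adjusted p = 3.13e-08). SLC9A3R1, the scaffold of apical membranes also known as NHERF1 or EBP50, held the highest level of these genes and fell from 227 and 223 FPKM at day 8 to 29.4 and 27.3 at day 12 (log2 change -2.95, SE 0.15, adjusted p = 3.82e-07). PLA2G2A, a secreted phospholipase, fell from 21.4 and 23.2 FPKM at day 8 to 1.04 and 1.19 at day 12 (-3.46). These genes were high and even in the day 8 pair. PLAT, the tissue plasminogen activator, fell from 52.1 and 44.5 FPKM at day 8 to 3.91 and 4.84 at day 12 (-3.20), and RAB37, a small GTPase of secretory vesicles, from 33.5 and 30.4 FPKM at day 8 to 2.14 and 2.65 at day 12 (-3.28). GFRA2, the co-receptor of neurturin that marks early heart progenitors, fell from 13.2 and 11.3 FPKM at day 8 to 0.61 and 0.7 at day 12 (-3.00), SERPINE3, a serpin, from 30.6 and 25.5 FPKM at day 8 to 2.46 and 2.92 at day 12 (-2.97), and EGFLAM, pikachurin, from 11.6 and 10.7 FPKM at day 8 to 0.62 and 0.87 at day 12 (-2.81). All of the genes named here kept their call under each of the 14 alternatives.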
